A study of Homo sapiens with 4 samples.

Results

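RGS1 and RGS16 are 2 regulators of G-protein signalling, and their RNA was measured in HUT78 cells with and without the compound CSH71. They were taken as the probe sets whose symbol in the platform annotation is RGS1 or RGS16, which gave 1 probe set each, 2 of 53617 probe sets and 2 of 14884 genes with a symbol. Both were chosen because their intensity differed between treated and untreated arrays, so that difference is described here and not tested. All other symbols made of RGS and a number serve as the family background, 18 genes with 1 probe set each. HUT78 is an established cell line from a human cutaneous T-cell lymphoma, and the series is about chemicals that target the part of the kinase p38γ that binds lipid. The 4 arrays hold total RNA of 2 HUT78 samples treated with CSH71 at 250 nM for 30 h and of 2 untreated ones, all grown in medium with serum. The labels call the controls untreated and name no solvent, and they do not say that replicates were grown separately, so the spread between arrays may be technical.

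A G-protein-coupled receptor activates a heterotrimeric G protein by making its alpha subunit exchange GDP for GTP. RGS proteins bind the active alpha subunit through their RGS domain and speed up GTP hydrolysis, which shortens the signal. RGS1 and RGS16 belong to the R4 subfamily, small proteins with little beyond the RGS domain, and act on alpha subunits of the Gi and Gq classes. In lymphocytes both are known as genes induced by activation, and both are known to dampen migration toward chemokines.

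The 250 bases before the annotated start of each gene are shown because both genes were brighter on the treated arrays. They come from RefSeq, build GRCh38.p14, and read 5′ to 3′ on the gene's own strand, with matches to the motifs listed next in capitals. The RGS1 stretch is chr1:192575523-192575772 on the plus strand and the RGS16 stretch is chr1:182604390-182604639 on the minus strand.
RGS1: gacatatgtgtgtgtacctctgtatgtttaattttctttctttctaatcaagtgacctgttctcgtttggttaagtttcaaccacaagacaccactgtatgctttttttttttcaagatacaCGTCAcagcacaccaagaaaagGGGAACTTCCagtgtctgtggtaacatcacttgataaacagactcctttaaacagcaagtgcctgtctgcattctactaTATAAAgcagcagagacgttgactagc
RGS16: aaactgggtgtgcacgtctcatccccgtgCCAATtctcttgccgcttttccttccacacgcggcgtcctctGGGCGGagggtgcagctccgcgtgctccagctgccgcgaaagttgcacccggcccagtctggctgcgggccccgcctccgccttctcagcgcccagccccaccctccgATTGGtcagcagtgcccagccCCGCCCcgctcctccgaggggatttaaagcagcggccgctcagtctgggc

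The stretches differ in base composition. The RGS1 stretch holds 39.2% G and C and 3 CpG dinucleotides, and the RGS16 stretch holds 68.4% and 22. Over 35114 promoters of the same length the median G and C content was 58%, with quartiles of 46.4% and 68%. Among the 17 measured RGS genes that have a promoter in that table, the content ran from 27.2% to 84%.

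Motifs were searched on both strands. The RGS1 stretch matched the TATA box TATAAA, which ends 22 bases before the start and occurs in 10.7% of all promoters. It also matched the NF-κB consensus (9.96% of all promoters) 106 to 97 bases before the start. The short cAMP-response half-site CGTCA (21.2%), which is also part of the full element TGACGTCA, lay 128 to 124 bases before it. The RGS16 stretch had none of these. It held 2 matches each to the CCAAT box CCAAT (32%) and to the GC box GGGCGG (42.6%). All these shares are of promoters with any match on either strand, however many. The AP-1 element TGACTCA (4.2%), the full cAMP-response element TGACGTCA (1.65%) and the CArG box (1.16%) were in neither stretch. A match is a run of letters in this window, and the arrays do not measure binding there.

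RGS1 and RGS16 were both brighter on the CSH71 arrays than on the untreated ones. The values are linear probe set intensities as the authors deposited them. RGS1 (probe set 16675301) had 961 and 938 on untreated replicates 1 and 2, and 1933 and 1767 on CSH71 replicates 1 and 2. The untreated arrays lay close together, and both treated arrays lay above both of them without overlap. The group means were 949 ± 16.2 untreated and 1850.0 ± 117 treated (SD, n = 2 each). The ratio of the means was 1.95, and the dimmer treated array had 1.84 times the intensity of the brighter untreated one.

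RGS16 (probe set 16697018) had 484 and 559 on the untreated arrays, and 1230.4 and 1095 on the CSH71 arrays. Again the groups did not overlap, and the untreated arrays lay further apart than those of RGS1. The means were 522 ± 53.0 untreated and 1163 ± 95.4 treated. The ratio of the means was 2.23, and that of the dimmer treated to the brighter untreated array was 1.96. In RNA from bulk cells, a larger share of expressing cells and more RNA per expressing cell cannot be told apart.

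**Figure D1:**
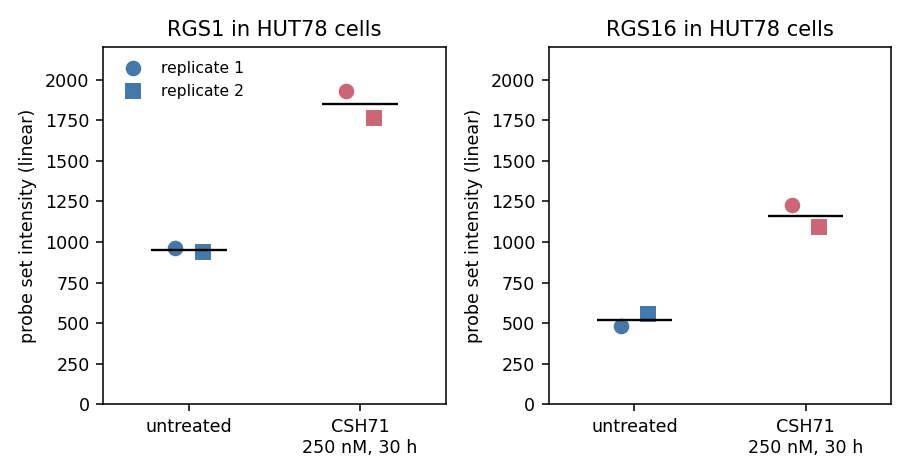
Linear probe set intensity of RGS1 (left) and RGS16 (right) on each array; circles are replicate 1, squares replicate 2, and the line is the group mean of 2 arrays. RGS1 lies at 938 to 961 untreated and 1767 to 1933 with CSH71, and RGS16 at 484 to 559 and 1095 to 1230.4.

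On the scale of log2(intensity + 16), the difference between treated and untreated arrays was 0.95 ± 0.17 for RGS1 and 1.13 ± 0.18 for RGS16 (SE of the limma fit over all genes). Replicates of RGS1 were 0.03 apart on that scale among untreated arrays and 0.13 apart among treated ones. For RGS16 these gaps were 0.20 and 0.17. Ordered by this difference from the most positive, RGS16 held rank 20 and RGS1 rank 37 of 14884 genes. Groups lay apart with the treated arrays on top for 15.0% of all genes. Neither RGS1 nor RGS16 was among the 7 genes (0.0470%) with a limma adjusted p under 0.05, and nothing is read from that, since both were chosen on this difference. All 4 arrays entered that choice, so no array was left on which it could be tested.

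The rest of the RGS family gives the background to these values. Of the 18 other measured RGS genes, 0 were called at a limma adjusted p under 0.05, against 0.0470% of all genes. At an unadjusted p under 0.05 there was 1, RGS3, against 5.11% of all genes. Their log2 differences ran from -0.51 to 0.32 with a median of -0.10, where the median of all genes was -0.01. Removal of the dimmest 40% of all genes left 8 of the 18, and on this log scale the change of dim genes is understated. With the constant added before the log set to 1 and 64, RGS22, at the top of this range, was at 0.56 and 0.14. The difference was negative for 13 of the 18, against 52.0% of all genes. The treated arrays lay wholly below the untreated ones for 5 of them, RGS3, RGS5, RGS9, RGS14 and RGS18, against 16.6% of all genes. They lay wholly above for 0 of them, against 15.0%.

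**Figure D2:**
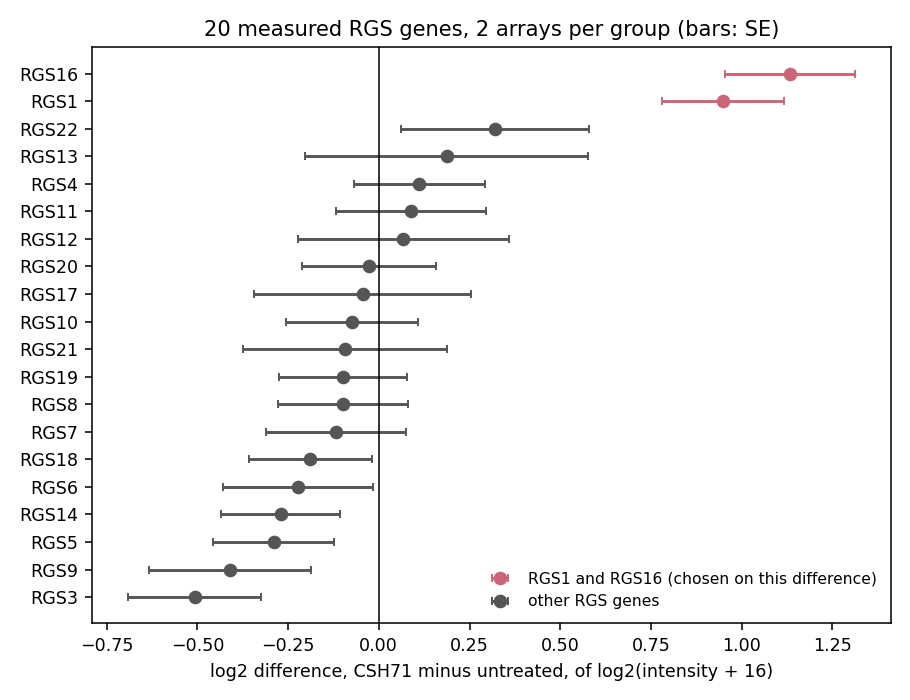
Log2 difference between CSH71 and untreated arrays for the 20 measured RGS genes; points are differences of means over 2 arrays a group and bars are the SE of the limma fit. RGS16 (1.13) and RGS1 (0.95), chosen for this difference, stand at the top, and the other genes lie between -0.51 for RGS3 and 0.32 for RGS22.

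The other members of the R4 subfamily are the closest relatives of RGS1 and RGS16, and 7 were measured. RGS3, which also exists in longer forms, had 226 and 238 on the untreated arrays and 177 and 142 on the treated ones. Its log2 difference was -0.51 ± 0.18, with an unadjusted 95% interval of -0.94 to -0.07 and a limma adjusted p of 0.929. RGS5, known from pericytes and smooth muscle, had 207 and 216 untreated and 165 and 175 treated (-0.29 ± 0.17, adjusted p = 0.999 in limma). For both genes the treated arrays were the dimmer ones, and neither passed the test.

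RGS18, known from platelets and their precursors, had 34.1 and 38.7 untreated and 28.6 and 31.3 treated, a log2 difference of -0.19 ± 0.17, and of -0.12 without untreated replicate 2. RGS13, a regulator of germinal-centre B cells and mast cells, was uneven within both groups, with 10.8 and 29.6 untreated and 11.5 and 41.7 treated. Its log2 difference was 0.19 ± 0.39, the widest error in the family. RGS4 (0.11 ± 0.18), RGS8 (-0.10 ± 0.18) and RGS21 (-0.09 ± 0.28) had overlapping groups. RGS2, a further member of the subfamily, was not analysed here.

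In the R12 subfamily, whose larger members carry a Ras-binding region beside the RGS domain, RGS14 had 276 and 278 untreated and 223 and 231 treated. That is a log2 difference of -0.27 ± 0.16, and the arrays of each group lay close together. RGS10, a short member of the group that is abundant in immune cells, had 448 and 509 untreated and 491 and 417 treated (-0.07 ± 0.18). RGS12 was at 0.07 ± 0.29. For RGS10 and RGS12 the groups overlapped.

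In the RZ subfamily, which takes in regulators of Gz, all 3 measured genes had overlapping groups. RGS19, also known as GAIP, had 359 and 424 untreated and 371 and 356 treated (log2 difference -0.10 ± 0.18). RGS17 was at -0.04 ± 0.30 and RGS20 at -0.03 ± 0.18. The R7 subfamily works with the beta subunit Gβ5, mainly in neurons and photoreceptors. Its member RGS9 had 112 and 170.2 untreated and 94.4 and 107 treated (-0.41 ± 0.22; -0.14 without untreated replicate 2 and -0.68 without untreated replicate 1), while RGS6 was at -0.22 ± 0.21, RGS7 at -0.12 ± 0.19 and RGS11 at 0.09 ± 0.21. RGS22, which falls in none of these groups, had 10.8 and 18.7 untreated and 14.5 and 31.5 treated (0.32 ± 0.26). That value rested on single arrays, at 0.0011 without CSH71 replicate 2 and 0.64 without CSH71 replicate 1. The limma adjusted p was 0.999 for each of the 17 genes other than RGS3. The 95% intervals of the 18 differences together spanned -0.94 to 1.11. The highest upper ends were 1.11 for RGS13 and 0.93 for RGS22. They are not set against RGS1 and RGS16, which were chosen on this difference.

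RGS1 and RGS16 sit among relatives on the long arm of chromosome 1. In the order of protein-coding genes of the RefSeq table, RGS21 and RGS13 flank RGS1, and RGS18 and RGS2 come next. RGS8 is next to RGS16. The measured neighbours of the family had log2 differences of -0.09 (RGS21), 0.19 (RGS13), -0.19 (RGS18) and -0.10 (RGS8), and 0 of these 4 were called, against 0.0470% of all genes, so the count says nothing particular of them.

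Genes with the most similar pattern were found by the distance between log2 values over the 4 arrays, each gene centred on its own mean. The nearest to RGS1 were PLPP1, a phospholipid phosphatase (distance 0.07), AQP7P3, an aquaporin pseudogene whose probes may also bind RNA of its relatives (0.09), and OSM, the cytokine oncostatin M (0.10). DUSP6 (0.12) and DUSP8 (0.14), phosphatases of mitogen-activated protein kinases, followed. PLPP1 had 2116 and 2175 untreated and 4286 and 3830 treated, so its arrays stood in nearly the same proportions as those of RGS1. OSM was dim, with 34.5 and 33.7 untreated and 81.4 and 82.3 treated, as was AQP7P3, with 42.1 and 44.25, and 97.0 and 89.9. Their nearness to RGS1 depended on the constant added before the log, as did that of DUSP8. With constants of 1 and 64 the log2 differences were 1.24 and 0.57 for OSM and 1.10 and 0.55 for AQP7P3. They were 0.995 and 0.64 for DUSP8, beside 0.96 and 0.92 for RGS1.

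The nearest to RGS16 were TNF (0.11), the cytokine named in the series' design text, JOSD1, a deubiquitinase (0.12), STAT4, a transcription factor of helper T cells (0.13), RASSF8 (0.13) and DUSP6 (0.16). TNF had 273 and 310.2 untreated and 705 and 569.5 treated, with a log2 difference of 1.08 beside 1.13 for RGS16. That of RASSF8 was 1.12 with a constant of 1 and 0.77 with 64, beside 1.16 and 1.07 for RGS16. DUSP6 was on both lists, at 1172 and 1286 untreated and 2556 and 2333 treated. RGS1 and RGS16 were 0.25 apart, which placed RGS16 at rank 26 from RGS1 and RGS1 at rank 11 from RGS16. With 4 arrays in 2 groups, these distances largely repeat the size of the difference between groups, and they are given as a description.

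**Figure D3:**
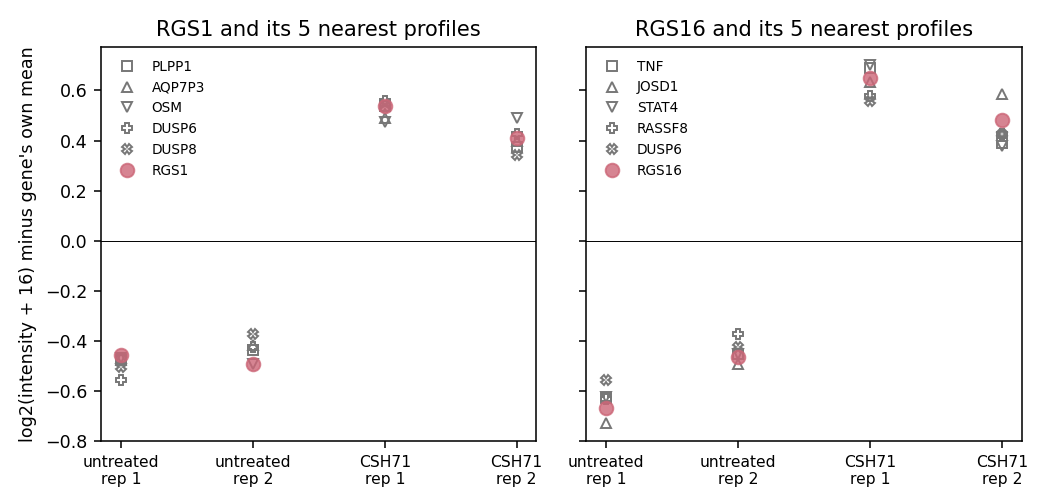
Log2(intensity + 16) minus each gene's own mean on the 4 arrays, for RGS1 (left) and RGS16 (right) with the 5 genes nearest to each. Filled circles are RGS1 or RGS16 and open symbols the other genes; all lie below 0 on both untreated arrays and above 0 on both treated arrays.

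Genes that work with RGS proteins were taken from 5 lists of G-protein signalling. The lists hold 139 genes, of which 67 were measured under the listed symbol. Of these 67, 0 were called higher or lower at a limma adjusted p under 0.05, against 0.0470% of all genes, and 4 had an unadjusted p under 0.05, against 5.11%. Their median log2 difference was -0.01, the same as that of all genes, with 32 positive and 35 negative. With a variance prior that follows intensity, limma called 4 of the 67, against 0.961% of all genes. These were the receptors CCR4, CCR7 and CCR8, lower, and GPR65, an acid-sensing receptor, higher. In that fit the prior had infinite degrees of freedom, which takes the variance of each gene from its intensity and not from its replicates.

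Among alpha subunits, the direct targets of RGS proteins, 2 of 16 listed genes were measured. GNAS, the stimulatory subunit, had 2143 and 2297 untreated and 2563 and 2002 treated, a log2 difference of 0.03 ± 0.19 that turned to -0.015 when the arrays were centred on their medians. GNA12, an alpha subunit of another class, had 120.0 and 133 untreated and 203 and 142 treated (0.38 ± 0.21), a value of 0.15 without CSH71 replicate 1 and 0.62 without CSH71 replicate 2. No beta or gamma subunit was analysed here, and neither were the alpha subunits of the Gi and Gq classes, on which RGS1 and RGS16 act.

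Other RGS-domain proteins, GoLoco proteins, receptor kinases and arrestins had a median of 0.02 over 18 measured genes, from -0.25 to 0.31, with 0 called by limma (0.0470% of all genes) and 0 at an unadjusted p under 0.05 (5.11%). The receptor kinase GRK5 had 929 and 999 untreated and 1184 and 1083 treated, a log2 difference of 0.23 ± 0.17. AXIN1, a Wnt pathway scaffold with an RGS domain, was at 0.25 ± 0.20, and at 0.053 without untreated replicate 1 and 0.45 without untreated replicate 2. GRK1, another receptor kinase, was at -0.25 ± 0.17, and at -0.15 without CSH71 replicate 2.

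Receptors of lymphocytes that signal through G proteins had a median of -0.01 over 35 measured genes, with 0 called by limma (0.0470% of all genes) and 3 of 35 at an unadjusted p under 0.05 (5.11%). These 3 were PTGDR2, CCR8 and CCR7, and all were dimmer with CSH71. PTGDR2, the prostaglandin D2 receptor of type 2 helper T cells, had 218 and 268 untreated and 138 and 122 treated. Its log2 difference was -0.82 ± 0.19, with an unadjusted 95% interval of -1.26 to -0.38 and a limma adjusted p of 0.877. The chemokine receptor CCR8 had 1802 and 1847 untreated and 1317 and 1188 treated (-0.54 ± 0.17, limma adjusted p = 0.927). CCR7, which guides T cells to lymph nodes, had 2429.9 and 2576 untreated and 1896 and 1722 treated (-0.47 ± 0.17, limma adjusted p = 0.929). Over the whole list the treated arrays lay wholly below the untreated ones for 8 of 35 genes and wholly above for 6 of 35, against 16.6% and 15.0% of all genes.

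**Figure D4:**
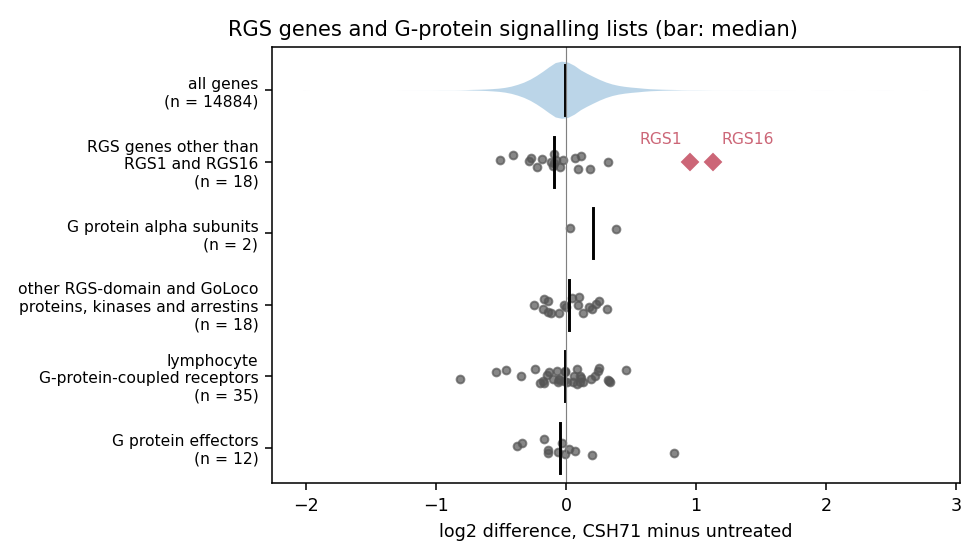
Log2 difference between CSH71 and untreated arrays for all 14884 genes (shape of the distribution), the 18 other RGS genes and 4 lists of G-protein signalling genes; points are genes, jittered vertically, bars are medians, and diamonds mark RGS1 and RGS16. The list medians run from -0.05 for effectors to 0.21 for the 2 alpha subunits.

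G-protein effectors, here mostly adenylyl cyclases, had a median of -0.05 over 12 measured genes, with 0 called by limma (0.0470% of all genes) and 1 of 12 at an unadjusted p under 0.05 (5.11%). That gene was ADCY8, an adenylyl cyclase, with 14.9 and 10.2 untreated and 27.5 and 42.4 treated (log2 difference 0.83 ± 0.21, limma adjusted p = 0.927). Its value depended on the constant added before the log, from 0.37 with 64 to 1.40 with 1. ADCY2 was at -0.34 ± 0.17 and ADCY10, whose treated arrays read 8.81 and 35.9, at -0.38 ± 0.33.

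The arrays were alike in their overall level, with medians of 71.5 to 81.1 over all probe sets. Calls between groups of the same cell line cannot check its label as a T-cell line. The values of 11 measured T-cell markers are given as a description. Of these 0 were called, against 0.0470% of all genes, and their median log2 difference was -0.04, with 3 positive and 8 negative. As untreated and treated means, CD5 had 1766 and 2043, LCK had 1079.5 and 1107, CD2 had 79.2 and 73.0, and CD28 had 75.1 and 86.0. TRAT1 had 1548 and 1323, ZAP70 had 1724 and 1703, and LAT had 789 and 754. CD4 had 428 and 412, CD6 had 606 and 592, and CD7 had 293 and 280. The zeta chain gene of the T-cell receptor complex, CD247, had 1279.7 and 1032, and the CD3 delta, epsilon and gamma genes were not analysed here. The B-cell, monocyte, natural killer, and fibroblast and epithelial markers, 19 measured in all, also held 0 called genes (0.0470% of all genes). Their median log2 differences were -0.15, 0.00030, -0.014 and -0.0061 in that order. Positive were 0 of 4, 4 of 7, 1 of 3 and 1 of 5 genes. The widest differences were -0.43 for NCAM1 and 0.43 for DCN. The epithelial gene EPCAM had 2062 and 2056. Without a detection call these intensities do not show which of the markers are present.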

How the data were processed

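Total RNA of 4 HUT78 samples was labelled with an Affymetrix whole-transcript assay and hybridised to 1 array each, per the labels. The authors deposited a linear intensity for every probe set. Affymetrix Expression Console is the software that the submitters' processing notes list. How it corrected background, summarised and normalized, and in which version, was not given in the sources at hand. The values carry no detection call, so no gene is called present or absent, and precision is limited by how few arrays there are. Levels of probe sets were set against each other only to keep 1 per gene and to mark dim genes.

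Groups and replicate numbers were read from the sample titles. Of 53617 probe sets, 16098 had 1 symbol, 0 several and 37519 none in the platform annotation, and all 16098 identifiers matched RefSeq (GRCh38.p14, used for names and gene order) with 0 symbols changed. Where a gene had several probe sets (779 genes), that of highest mean log2 value was kept, leaving 14884 genes. Values became log2(intensity + 16), on which the change of dim genes is understated. Groups were compared with limma 3.58.1 in R 4.3.3, with 2-sided p-values adjusted by Benjamini-Hochberg over all genes and called under 0.05.

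Named genes were RGS1, RGS16, all other measured RGS genes, the 3 members with the smallest p of each G-protein list, the 5 nearest profiles of RGS1 and of RGS16, and the cell type markers. The members, lists and constant were chosen with earlier results of these data known. Promoter motifs were searched with Python 3.11.15. The limma step was tested on 10 simulated data sets of 14884 genes. In each, 200 genes were given a 2-fold or 4-fold change, and variances were drawn without regard to intensity. It called 16.7% of the genes given a 2-fold change and 94.1% of those given a 4-fold change. On average it called 115.3 genes a set, 4.5 of them falsely. In these data it called 7 genes, so those shares need not hold. Alternatives were the replicate block, quantile normalization, median centring, constants of 1 and 64, removal of the dimmest 40% of genes, averaging of probe sets, a fit on all probe sets, other variance priors, and leaving out each array. Deviations of same-numbered arrays from their group means correlated at -0.29 over genes, and a crossed pairing was added after this was seen.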

Additional observations from a re-analysis of the deposited data

How the results depend on the processing

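Over the 15 alternatives the difference ran from 0.89 to 1.01 for RGS1 and from 1.03 to 1.23 for RGS16, with the extremes reached when 1 array was left out. These ranges are no sign of stability: both genes were chosen on this difference in all 4 arrays, their groups do not overlap, and the block, the priors, the averaging of probe sets and the removal of dim genes cannot move it. With the replicate block the differences were 0.95 and 1.13 by construction, and 0 other RGS genes and 0 genes of the G-protein lists were called. Nothing in the labels says that equal numbers mark paired arrays. Limma called 28 of all genes with the block (548 at an unadjusted p under 0.05), 7 without it (760) and 0 with the crossed pairing (1291), with prior degrees of freedom that differed between these fits. In all fits on 4 arrays limma called 0 other RGS genes (8 of 18 tested without the dimmest 40%). At an unadjusted p under 0.05 it had 0 with the block, else 1 (5.11% of all genes as reported). The G-protein lists had 0 calls except with an intensity trend in the prior, which gave 4. Over all genes, limma called 143 with that trend, 43 after median centring, 33 with a constant of 64, 11 without the dimmest 40% of genes, and 0 after quantile normalization, with a constant of 1, over all probe sets, or without untreated replicate 1 or 2. Without CSH71 replicate 1 it called 29 and without CSH71 replicate 2 it called 20. The numbers at an unadjusted p under 0.05 in the fits with 0 calls were 927, 768, 2367, 794 and 609 in that order.

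The sign of some differences turned when 1 array was left out. Most of these were small, but that of ADCY10 was -0.38 as reported. The ranges were -0.024 to 0.25 for RGS4, -0.45 to 0.0066 for RGS6, -0.30 to 0.067 for RGS7, -0.22 to 0.021 for RGS8, -0.19 to 0.039 for RGS10, -0.13 to 0.31 for RGS11 and -0.38 to 0.51 for RGS12. They were -0.35 to 0.72 for RGS13, -0.44 to 0.35 for RGS17, -0.21 to 0.018 for RGS19, -0.18 to 0.13 for RGS20, -0.47 to 0.28 for RGS21, -0.91 to 0.16 for ADCY10 and -0.15 to 0.21 for GNAS. GNAS also turned to -0.015 after median centring. The cause was not tested. Others kept their sign but moved by over 1.5 times from the reported value: 0.0011 to 0.64 for RGS22, -0.68 to -0.14 for RGS9, -0.25 to -0.12 for RGS18, 0.053 to 0.45 for AXIN1, 0.15 to 0.62 for GNA12 and -0.34 to -0.15 for GRK1. RGS3 moved by less from it, over -0.65 to -0.36, as did GRK5 (0.17 to 0.29) and ADCY8 (0.61 to 1.04). The number of the 18 other RGS genes with a negative difference was 13 as reported and fell to 9 without CSH71 replicate 1. In these fits the lone array of a group is assumed to vary like the other group.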
